A study of Homo sapiens with 18 samples.

Results

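The semaphorins, plexins and neuropilins are ligands and receptors that steer growing axons and migrating cells, and 31 of their genes were followed here: 20 semaphorins, 9 plexins and 2 neuropilins. They were chosen by gene symbol, as all probe sets (groups of probes summarized as 1 value) that the array annotation gives to one of these symbols alone. These were 85 of the 54675 probe sets on the array. The cells were SH-SY5Y, a human neuroblastoma line, kept for 7 days in 10 μM retinoic acid and then for 24 h without it, in every group. They were exposed for 30 min to 0, 1 or 5 μM cocaine, with the same changes of medium at 0 μM, and were collected 6 or 24 h later. Each of the 6 groups had 3 arrays, and each array held RNA pooled from 3 dishes, so the p-values measure the spread between pools of dishes of 1 line.

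Semaphorins are secreted (class 3), span the membrane (classes 4, 5 and 6) or are tied to it by a lipid anchor (class 7). They bind plexins, whose intracellular part inactivates small GTPases of the Ras family and so loosens adhesion and the cytoskeleton of the growth cone. Most class 3 semaphorins reach plexins through a neuropilin, which binds the ligand but signals little by itself. In sympathetic neurons, the lineage from which neuroblastoma arises, class 3 semaphorins acting through neuropilins guide both the neural crest precursors and their axons.

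The values are log2 signals, normalized by the authors separately for the arrays of 6 h and of 24 h, so levels were compared within a time only, and only within a probe set. A probe set was kept at a time when its mean over the 9 arrays was above log2(40), which is 5.32. At 6 h, 39 of the 85 probe sets were kept, from 22 of the 31 genes, and at 24 h 46 probe sets from 25 genes. Markers of the sympathoadrenal lineage were above the threshold for 8 of 9 genes at both times, with PHOX2A at 10.97 to 11.78 at 6 h. TH, the enzyme that starts dopamine synthesis, was below it on all 18 arrays (3.35 to 3.61 at 6 h). Of the mesenchymal markers 3 of 5 were above it (COL1A1, LUM and DCN), of the glial ones 1 of 4 (SOX10, at 5.32 to 5.59 at 6 h), and of the endothelial and leukocyte ones 0 of 3 and 0 of 1. Array medians spanned 4.96 to 5.01 (6 h) and 5.30 to 5.35 (24 h); the small number of arrays limits the precision.

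A pair of untreated arrays of 6 h stood apart before any comparison. CYP26A1, which encodes the hydroxylase that clears retinoic acid and whose transcription retinoic acid induces, was at 5.01, 10.69 and 10.99 on the untreated arrays 1, 2 and 3 of 6 h, whereas the 6 cocaine arrays of that time had 4.95 to 5.61. RARB, a retinoic acid receptor that is also induced by its ligand, was at 8.41, 9.83 and 9.89 on those untreated arrays. At 24 h the untreated array 3 had CYP26A1 at 9.55. The calls of 5 or 1 over 0 μM at 6 h, and of 6 h against 24 h, are therefore given with the untreated arrays 2 and 3 and without them.

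The class 3 genes SEMA3B, SEMA3D, SEMA3E and SEMA3G, the receptor gene PLXNB3 and the second neuropilin gene NRP2 were not kept at either time. Their highest probe set means ranged between 3.16 and 4.51 (6 h) or 3.52 and 5.28 (24 h). NRP2 had all 11 of its probe sets below the threshold. SEMA3A (the classic growth cone repellent), SEMA4G and PLXNC1 (the receptor of SEMA7A) were not kept at 6 h but were kept at 24 h, each with 1 probe set and with means of 5.71, 5.42 and 5.48. Being kept at 24 h alone is not a rise in level, since the times were normalized apart. The array medians were also higher at 24 h (5.30 to 5.35) than at 6 h (4.96 to 5.01). A probe set below the threshold says only that its signal was low on these arrays. The kept genes were SEMA3C and SEMA3F of class 3, SEMA4A, SEMA4B, SEMA4C, SEMA4D and SEMA4F of class 4, both class 5 and all 4 class 6 genes, SEMA7A, and NRP1 with all 4 class A plexins, PLXNB1, PLXNB2 and PLXND1.

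SEMA6D, a transmembrane class 6 semaphorin that binds PLXNA1 in the chick, fell at 6 h after 5 μM cocaine, and its probe set 226492_at was the single one of the 39 to pass the test. It lay at 8.65, 9.30 and 9.20 on the untreated arrays 1, 2 and 3, at 8.50, 8.44 and 8.39 after 1 μM and at 8.45, 8.37 and 8.17 after 5 μM. The 6 cocaine arrays thus all lay below the lowest untreated one, but the untreated array 1 was closer to them than to the other 2 untreated arrays. The mean was 8.33 ± 0.14 after 5 μM and 9.05 ± 0.35 in untreated cells (SD, n = 3 each), a log2 fold change of -0.72 (SE 0.157, 0.609-fold, limma adjusted p = 0.0826, or 0.0414 with the replicate number as a block). Array by array within a replicate number, 5 μM minus untreated was -0.20, -0.93 and -1.03 for numbers 1, 2 and 3.

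The 2 untreated arrays high in SEMA6D were the same 2 that were high in CYP26A1 and RARB, and the part of that difference in the result was not tested. Without them, the SEMA6D change at 5 μM was -0.31 (limma adjusted p = 0.345), and -0.22 (0.186) with the replicate block. A single untreated array was then left, assumed to vary like the others. The call was also lost when either of these arrays was left out alone (adjusted p = 0.226 and 0.192), and in 6 further fits that each left out 1 cocaine array (adjusted p of 0.102 to 0.234). Leaving out the untreated array 1 gave -0.92 (limma adjusted p = 0.00368), and the untreated cells were then the 2 arrays high in CYP26A1 and RARB alone. Over the 9 fits that left out 1 array, 0 to 1 of the 39 passed, beside 0 to 2432 of the 22455. Of the 22455 probe sets tested, 2.98% passed in this comparison, and 1 of 39, or 2.56%, among the semaphorin, plexin and neuropilin probe sets.

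At 24 h, SEMA6D 226492_at lay at 9.06, 9.06 and 9.27 in untreated cells, at 9.18, 8.99 and 9.14 after 1 μM and at 9.24, 9.00 and 9.24 after 5 μM. The doses overlapped, and 5 over 0 μM was 0.03 (SE 0.0917, limma adjusted p = 0.982). The change at 6 h minus that at 24 h was -0.75 (SE 0.191, limma adjusted p = 0.0611, or 0.0296 with the block), the only such difference to pass without the block among 39 probe sets, against 4.21% of the 22358 kept at both times. Without the untreated arrays 2 and 3 of 6 h it was -0.35 (adjusted p = 0.391), and it was also lost in 8 of the 12 fits that left out 1 array, which were those without the untreated arrays 2 or 3 and the 5 μM arrays 2 or 3 of 6 h, and the untreated arrays 1 or 2 and the 5 μM arrays 1 or 3 of 24 h (adjusted p of 0.110 to 0.138). The untreated array 3 of 24 h, with its high CYP26A1, was at 9.27, and the 5 μM arrays 1 and 3 reached 9.24.

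The other SEMA6D probe sets kept did not give the same picture. For 233882_s_at, the values at 6 h were 6.16, 6.19 and 6.07 in untreated cells, 5.88, 5.64 and 4.52 after 1 μM and 5.94, 5.82 and 5.75 after 5 μM. All cocaine arrays were below the untreated ones, with 1 array after 1 μM far below the rest. The log2 fold change at 5 μM was -0.30 (SE 0.292, limma adjusted p = 0.638), and at 1 μM -0.80 (SE 0.292, adjusted p = 0.288, or 0.0953 with the block). For 233801_s_at, the values were 5.47, 5.59 and 5.49 in untreated cells, 5.22, 5.28 and 5.24 after 1 μM and 5.57, 5.66 and 5.33 after 5 μM. All arrays at 1 μM lay below all others, with a log2 fold change of 1 over 0 μM of -0.27 (limma adjusted p = 0.244, or 0.0697 with the block), while 5 over 0 μM was at 0.0038. At 24 h both probe sets had overlapping doses, at 5.94 to 6.23 after 5 μM and 6.06 to 6.08 in untreated cells for 233801_s_at.

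**Figure D1:**
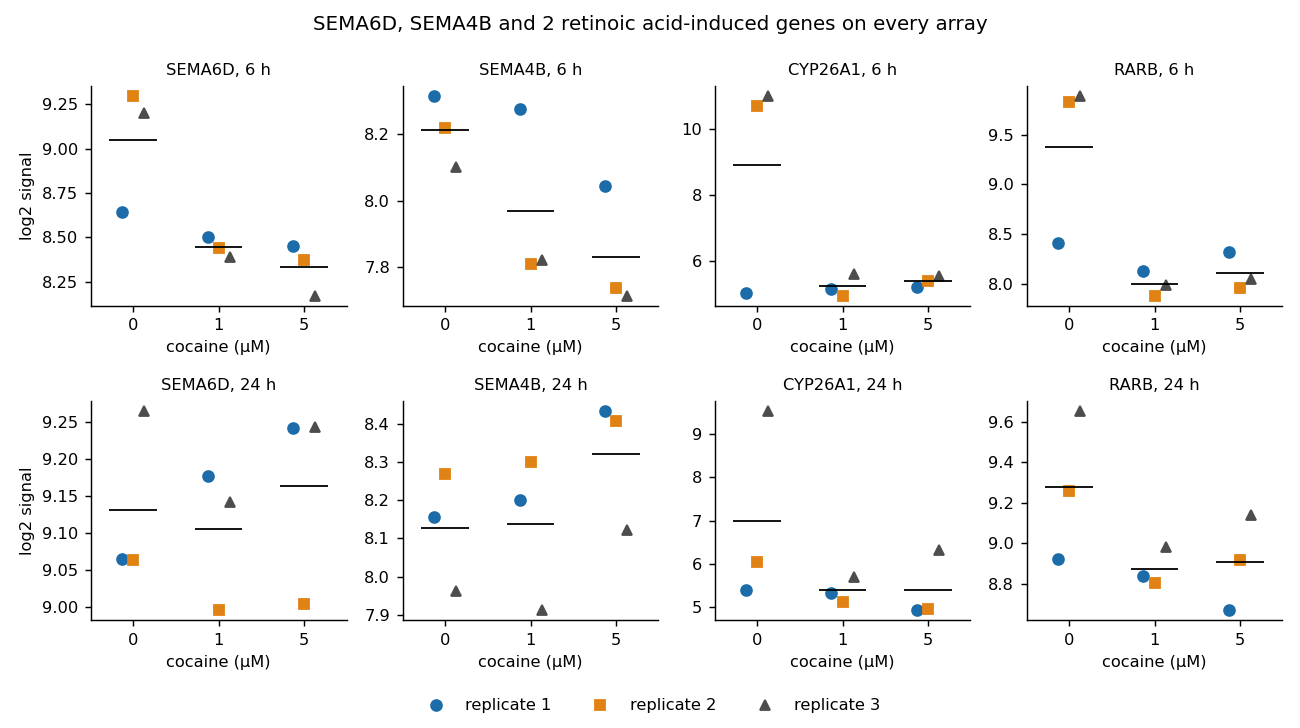
Log2 signal (vertical axis) on every array by cocaine dose in μM (horizontal axis), at 6 h (top) and 24 h (bottom), for SEMA6D (226492_at), SEMA4B (234725_s_at), CYP26A1 and RARB; symbols mark the replicate number and horizontal lines the mean of 3 arrays. At 6 h the untreated arrays 2 and 3 lie highest in SEMA6D (9.30 and 9.20), CYP26A1 (10.69 and 10.99) and RARB (9.83 and 9.89).

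Because SEMA6D and the retinoic acid-induced genes were high on the same arrays, the promoter letters of SEMA6D are set beside those of CYP26A1 and RARB. Retinoic acid receptors bind pairs of half-sites in the same orientation, classically with 5 bases between them. The 250 bases before each start in the RefSeq promoter table (GRCh38.p14) were searched on both strands for the half-sites AGGTCA or AGTTCA or GGTTCA or GGGTCA, and for 2 of them in 1 orientation with 5 bases between, where overlapping matches were counted too. At least 1 half-site was in 33.8% of the 35116 windows and such a repeat in 0.074%, or 26 windows. SEMA6D had 3 windows, of which 1 (chr15:47717255-47717504, + strand) held 2 half-sites, in capitals here, and none held the repeat. One window of CYP26A1 (chr10:93073643-93073892, + strand) and one of RARB (chr3:25428013-25428262, + strand) held the repeat, and in these windows the capitals mark the repeat alone, with its 5 spacer bases.
SEMA6D: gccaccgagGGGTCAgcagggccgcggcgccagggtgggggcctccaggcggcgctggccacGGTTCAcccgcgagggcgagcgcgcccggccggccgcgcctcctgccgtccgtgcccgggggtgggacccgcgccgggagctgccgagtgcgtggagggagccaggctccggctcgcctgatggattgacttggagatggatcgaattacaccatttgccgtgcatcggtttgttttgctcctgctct
CYP26A1: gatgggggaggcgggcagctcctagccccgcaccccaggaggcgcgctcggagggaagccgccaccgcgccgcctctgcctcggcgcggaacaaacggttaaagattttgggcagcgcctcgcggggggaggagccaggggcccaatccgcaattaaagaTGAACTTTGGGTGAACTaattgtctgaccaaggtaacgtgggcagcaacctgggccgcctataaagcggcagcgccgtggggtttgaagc
RARB: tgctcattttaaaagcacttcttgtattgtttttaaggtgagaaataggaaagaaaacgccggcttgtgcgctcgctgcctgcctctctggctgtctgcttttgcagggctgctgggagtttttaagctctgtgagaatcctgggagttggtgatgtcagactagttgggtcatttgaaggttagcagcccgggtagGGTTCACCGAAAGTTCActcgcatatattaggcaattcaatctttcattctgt

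These matches describe letters and not binding. The repeat was rare (0.074% of all windows) and only 250 bases were searched, so its absence cannot decide on control by retinoic acid. That control was not tested. Windows were found for 27 of the 31 genes, 48 in all, and a half-site was in 18 of them (37.5%), the spaced repeat in 0. With 1 or 2 bases between the half-sites, spacings that these receptors also bind, the repeat was in 0 and 1 of the 48 (the 1 in SEMA4A), against 0.0968% and 0.0313% of all windows. NRP1, SEMA3A, SEMA6A and SEMA6B were not matched.

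Across all 39 probe sets at 6 h, the median log2 fold change of 5 over 0 μM was -0.03 (17 above 0 and 22 below), and over all 22455 it was -0.02. The arrays of 5 and 0 μM did not overlap for 7 of the 39 (17.9%), against 21.2% of all probe sets tested. With the replicate number as a block, which takes out what the arrays of 1 number share, 7 of the 39 passed (17.9%), 4 higher and 3 lower, against 18.6% of all. The share among these genes was thus near that of the whole array in each count. Without the untreated arrays 2 and 3, 0 of 39 passed without the block, as did 0% of all, and 1 with it (SEMA5B, 2.56%, against 2.6% of all).

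Beside SEMA6D, SEMA4B and SEMA6C were lower at 5 μM with the block. SEMA4B, a class 4 transmembrane semaphorin, was at 8.32, 8.22 and 8.10 on the untreated arrays 1, 2 and 3 of 6 h, at 8.28, 7.81 and 7.82 after 1 μM and at 8.04, 7.73 and 7.71 after 5 μM. All 3 arrays at 5 μM lay below all untreated ones. The log2 fold change was -0.38 (SE 0.0694 with the block, limma adjusted p = 0.0283, or 0.223 without it), while without the untreated arrays 2 and 3 it was -0.49, or -0.23 with the block (adjusted p = 0.416 and 0.177). At 24 h SEMA4B was at 8.16, 8.27 and 7.96 in untreated cells, 8.20, 8.30 and 7.91 after 1 μM and 8.44, 8.41 and 8.12 after 5 μM, where each 5 μM array was above the untreated array of its number. The change at 6 h minus that at 24 h was -0.58 (SE 0.0856 with the block, adjusted p = 0.00366, or 0.171 without it).

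SEMA6C was at 6.48, 6.62 and 6.40 in untreated cells of 6 h, at 6.42, 6.73 and 6.42 after 1 μM and at 6.34, 6.42 and 6.21 after 5 μM. The groups overlapped, and within each number 5 μM was the lowest (-0.18, SE 0.0531 with the block, limma adjusted p = 0.0811, or 0.405 without). Without the untreated arrays 2 and 3 it was -0.16, or -0.20 with the block (adjusted p = 0.696 and 0.245).

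SEMA5B, SEMA6A, PLXND1 and PLXNA2 were higher at 5 μM with the block. SEMA5B, a class 5 protein with thrombospondin repeats, was at 6.04, 5.65 and 5.88 in untreated cells, at 6.28, 6.05 and 5.95 after 1 μM and at 6.50, 6.14 and 6.06 after 5 μM. All 5 μM arrays lay above all untreated ones (0.38, SE 0.0725 with the block, limma adjusted p = 0.0318, or 0.236 without). Without the untreated arrays 2 and 3 it was 0.19 (adjusted p = 0.730), or 0.42 with the block (0.0947). SEMA6A, a class 6 ligand of PLXNA2 and PLXNA4 in mice, was at 6.84, 6.12 and 5.52 at its probe set 225660_at in untreated cells, at 6.75, 6.59 and 5.78 after 1 μM and at 6.86, 6.79 and 6.19 after 5 μM. The untreated arrays 2 and 3 were the lowest of their numbers, while for number 1 the doses lay close together. Its log2 fold change of 0.46 (adjusted p = 0.072 with the block and 0.56 without) was -0.22 without these 2 arrays and 0.09 without them under the block, and its second probe set, 223449_at, was at 0.23 (adjusted p = 0.734).

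PLXND1, a receptor for SEMA3E and, with neuropilins, for SEMA3C, was at 6.15, 6.11 and 6.16 at 38671_at in untreated cells, at 6.30, 6.27 and 6.28 after 1 μM and at 6.23, 6.49 and 6.34 after 5 μM. All cocaine arrays lay above the untreated ones (0.21 at 5 μM, SE 0.0656 with the block, limma adjusted p = 0.0851, or 0.169 without), and without the untreated arrays 2 and 3 the value was 0.20, or 0.15 with the block (adjusted p = 0.476 and 0.427). The other PLXND1 probe set kept at 6 h, 212235_at, was at -0.08. PLXNA2 was at 5.78, 5.94 and 5.74 at 207290_at in untreated cells, at 5.37, 5.90 and 5.91 after 1 μM and at 5.90, 6.21 and 6.37 after 5 μM (0.34, limma adjusted p = 0.0933 with the block and 0.33 without). The lowest 5 μM array was just below the highest untreated one, and without the untreated arrays 2 and 3 the value was 0.38, or 0.07 with the block (adjusted p = 0.590 and 0.669). Its other probe sets, 213030_s_at and 227032_at, were at -0.04 and -0.07 in the same comparison.

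After 1 μM cocaine, 0 of the 39 probe sets passed at 6 h in limma, as did 0% of all, while 6 of 39 had an unadjusted p under the 0.05 level (15.4%, against 14.3% of all) and 6 did not overlap (15.4%, against 17.4% of all). With the block 5 passed, all lower (12.8%, against 12.5% of all). They were the 3 SEMA6D probe sets above, SEMA4B (-0.24, adjusted p = 0.0882) and PLXNA3, a plexin that pairs with NRP2 in mice. PLXNA3 was at 6.12, 6.18 and 6.16 in untreated cells, at 6.01, 5.90 and 5.81 after 1 μM and at 5.96, 5.96 and 6.01 after 5 μM, so that all cocaine arrays lay below all untreated ones (-0.25 at 1 μM, SE 0.0601 with the block, adjusted p = 0.0672, or 0.178 without). The 1 μM change of SEMA6D 226492_at, -0.60 (adjusted p = 0.0757 with the block and 0.188 without), was -0.20 without the untreated arrays 2 and 3, where PLXNA3 was at -0.22 and SEMA4B at -0.35. That of SEMA6D was -0.81 without the untreated array 1 (limma adjusted p = 0.0101), the only one of the 9 fits that left out 1 array in which any of the 39 passed. Over these 9 fits, 0 to 962 of all 22455 probe sets passed. With the block and without the untreated arrays 2 and 3, none of the 5 passed, but 4 others did (10.3%, against 8.6% of all): SEMA3C 203789_s_at (-0.51, adjusted p = 0.0853), NRP1 212298_at (-0.48, 0.0922) and PLXNA2 207290_at (-0.36, 0.0950) lower, and PLXNA4 234859_at (0.35, 0.0847) higher. All 4 differences then rest on the untreated array 1.

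No member passed between 5 and 1 μM at 6 h, with or without the block (0% of all probe sets in limma either way, and 3 of 39 with an unadjusted p under the 0.05 level without it, 7.69% against 6.45% of all). SEMA6D 226492_at, at 8.33 ± 0.14 after 5 μM and 8.44 ± 0.058 after 1 μM, differed by -0.11, less than the SD of the 5 μM arrays.

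**Figure D2:**
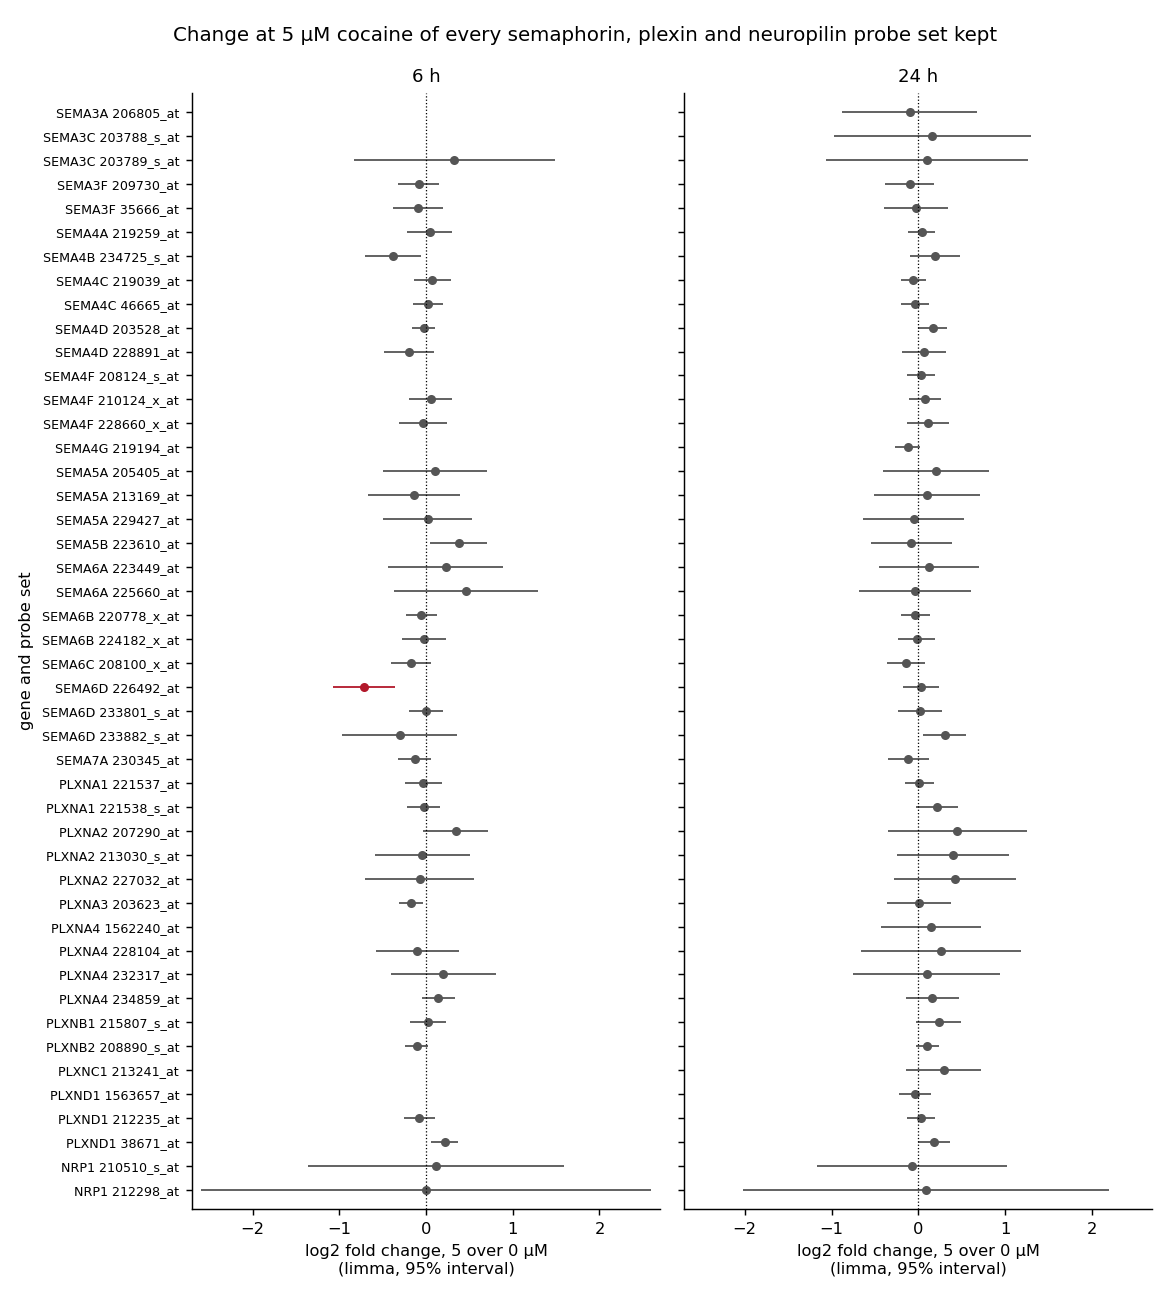
Log2 fold change of 5 over 0 μM cocaine (horizontal axis, with limma's 95% interval) of each kept probe set, named by gene and probe set on the vertical axis, at 6 h (left) and 24 h (right); red marks an adjusted p under 0.10. SEMA6D 226492_at at 6 h (-0.72) is the single red point, and at 6 h the widest intervals belong to NRP1 and SEMA3C.

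At 24 h, 0 of 46 probe sets passed in limma in any of the 3 dose comparisons, with or without the block. Over all 24307 probe sets, 0.0123% passed for 5 over 0 μM, 0% for 1 over 0 μM and 0.00823% for 5 over 1 μM, and an unadjusted p under the 0.05 level was reached by 2, 2 and 0 of the 46 (4.35%, 4.35% and 0%, against 7.2%, 3.37% and 6.12% of all). With the block these were 11, 6 and 7 of the 46 (23.9%, 13% and 15.2%, against 15.5%, 8.74% and 13.4% of all). Without the block they were, for 5 over 0 μM, SEMA6D 233882_s_at (0.30, SE 0.109, limma adjusted p = 0.611) and SEMA4D 203528_at (0.16, SE 0.0715, 0.683). The median log2 fold change of 5 over 0 μM was 0.17 over the 16 plexin probe sets, which come from 8 genes. It was 0.02 over the 28 semaphorin ones, from 16 genes, and -0.0002 over all probe sets. Above 0 were 15 of the 16 and 15 of the 28, against 12126 of all 24307, and probe sets of 1 gene share their RNA. The highest log2 fold changes were those of PLXNA2, at 0.40, 0.43 and 0.45 for its 3 probe sets (213030_s_at, 227032_at and 207290_at). Without the block their SEs were 0.285, 0.308 and 0.353, so each difference was within 2 SEs of that fit. Those SEs include the spread with the replicate number, which held 74.5%, 72.1% and 74.5% of the sum of squares. At all 3 probe sets each 5 μM array was above the untreated array of its number, but none passed with the block. For PLXNA2 213030_s_at the values were 8.08, 8.53 and 8.93 in untreated cells, 8.30, 8.48 and 9.11 after 1 μM and 8.73, 8.65 and 9.37 after 5 μM, with overlapping doses and every 5 μM array above the untreated array of its number.

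The change at 6 h differed from that at 24 h in 8 of the 39 probe sets with the block (20.5%, against 15.9% of all), 2 higher and 6 lower at 6 h. Besides SEMA6D and SEMA4B they were PLXNA2 at 213030_s_at (-0.45, limma adjusted p = 0.0289) and 227032_at (-0.50, 0.0435), PLXNA1 at 221538_s_at (-0.25, 0.0793) and PLXNB2 (-0.21, 0.0769) on the lower side, and SEMA6A 225660_at (0.50, 0.0636) and SEMA5B (0.46, 0.0925) on the higher side. PLXNA1 forms a receptor with NRP1, and PLXNB2 binds SEMA4C. PLXNB2 was at 9.20, 9.20 and 9.24 after 5 μM at 6 h, against 9.27, 9.43 and 9.27 in untreated cells, and at 9.46, 9.50 and 9.49 after 5 μM at 24 h, against 9.31, 9.47 and 9.36 in untreated cells. Without the block SEMA6D alone passed, and with the block but without the untreated arrays 2 and 3 of 6 h only SEMA4B did (-0.42, adjusted p = 0.0476), or 2.56% against 7.9% of all. Without these arrays and without the block 0 of 39 passed, against 1.48% of all.

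In most of these genes the replicate number went with more of the spread than the dose did. NRP1, the neuropilin that binds SEMA3A and VEGFA, was at 8.60, 6.46 and 4.93 at 212298_at on the untreated arrays 1, 2 and 3 of 6 h, at 8.05, 6.37 and 4.94 after 1 μM and at 8.38, 6.37 and 5.22 after 5 μM. The arrays numbered 1 lay far above those numbered 3 at every dose, and the doses of 1 number lay close together. The number held 98.8% of the sum of squares over the 9 arrays and the dose 0.501%, and the 95% interval of 5 over 0 μM ran from -2.60 to 2.59 without the block and from -0.27 to 0.27 with it (SE 0.115). At 24 h NRP1 was at 8.38, 8.06 and 5.93 in untreated cells, 8.44, 8.42 and 6.26 after 1 μM and 8.35, 8.48 and 5.80 after 5 μM. There the arrays numbered 2 were level with those numbered 1 (means of 8.32 and 8.39) and those numbered 3 were lower (6.00), whereas at 6 h the 3 means were 8.34, 6.40 and 5.03. The second NRP1 probe set, 210510_s_at, had means of 6.51, 5.25 and 4.67 for numbers 1, 2 and 3 at 6 h and of 6.15, 5.99 and 4.89 at 24 h. Of these, the means of numbers 2 and 3 at 6 h and of number 3 at 24 h were below the signal threshold.

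SEMA3C, a secreted ligand of neuropilins that can attract as well as repel, went the same way. At 203789_s_at it was at 9.52, 8.65 and 7.34 in untreated cells of 6 h, at 8.95, 8.90 and 8.07 after 1 μM and at 9.26, 8.89 and 8.35 after 5 μM. The arrays numbered 3 were the lowest at every dose, by 1.33 ± 0.737 below those numbered 1 at 6 h and 1.39 ± 0.346 at 24 h (SD over the 3 doses). SEMA3A at 24 h was 0.964 ± 0.104 lower on the arrays numbered 3 (5.05 to 5.30, below the signal threshold) than on those numbered 1. SEMA5A, a transmembrane semaphorin with thrombospondin repeats, was 0.640 to 0.737 lower at its 3 probe sets at 6 h and 0.682 to 0.726 lower at 24 h, and SEMA6A 225660_at 0.989 and 0.767 lower.

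PLXNA2 and PLXNA4, receptors of class 3 and class 6 semaphorins, ran the other way. PLXNA4 228104_at was at 9.99, 10.46 and 10.65 on the untreated arrays 1, 2 and 3 of 6 h, at 9.89, 10.26 and 10.49 after 1 μM and at 9.97, 10.37 and 10.46 after 5 μM. The arrays numbered 3 were the highest at every dose, and at 24 h their mean was 10.96, against 9.94 and 10.00 for numbers 1 and 2. PLXNA2 213030_s_at had means of 8.13, 8.59 and 8.80 at 6 h and of 8.37, 8.55 and 9.14 at 24 h. The arrays numbered 3 were thus lower in the co-receptor NRP1 and its ligands SEMA3A (24 h) and SEMA3C and higher in PLXNA2 and PLXNA4.

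**Figure D3:**
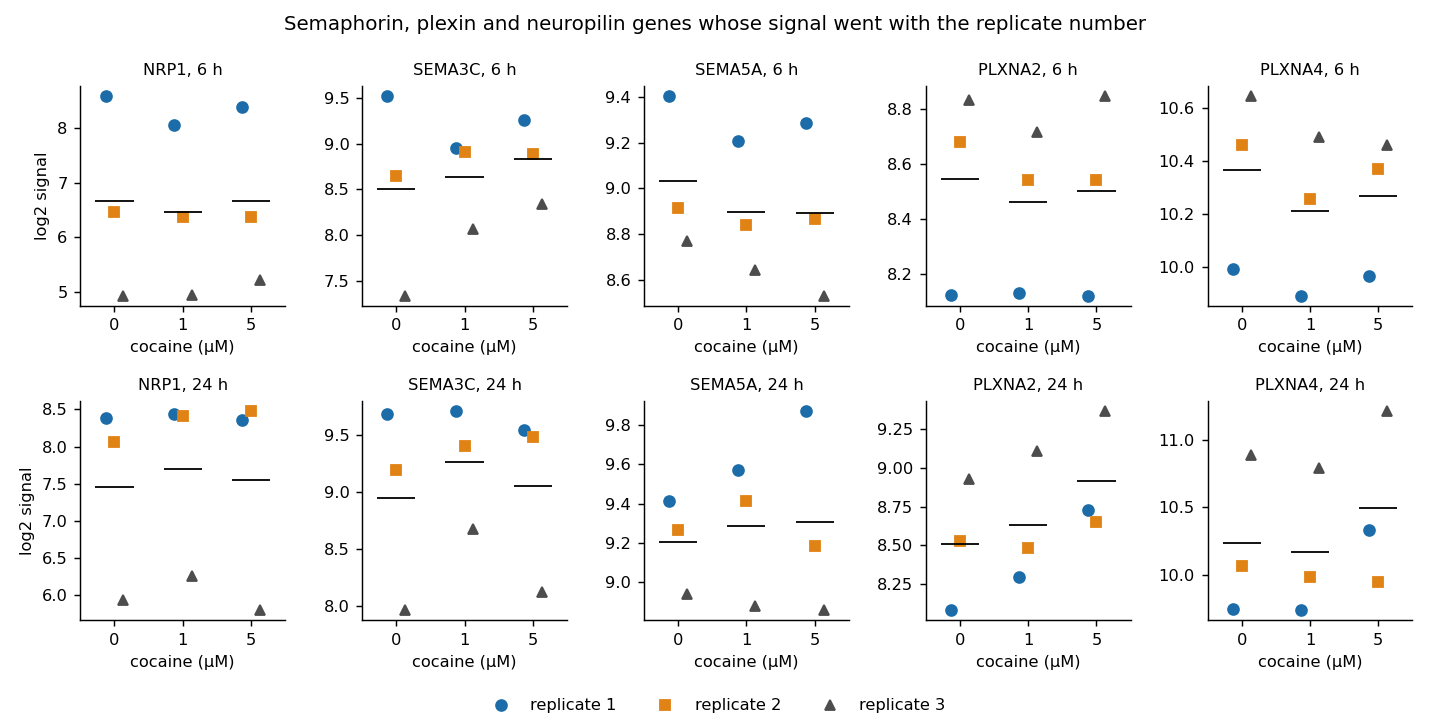
Log2 signal (vertical axis) on every array by cocaine dose in μM (horizontal axis), at 6 h (top) and 24 h (bottom), for NRP1 212298_at, SEMA3C 203789_s_at, SEMA5A 213169_at, PLXNA2 213030_s_at and PLXNA4 228104_at; symbols mark the replicate number and horizontal lines the mean of 3 arrays. The arrays numbered 3 are the lowest at every dose in NRP1, SEMA3C and SEMA5A and the highest in PLXNA2 and PLXNA4.

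Counted over these genes, the number held more than 50% of the spread in 21 of 39 probe sets (13 genes) at 6 h, where 33.5% of all probe sets did, and in 29 of 46 (17 genes) at 24 h, where 40% of all did. The means of the 3 numbers spanned over 1 on the log2 scale in 3 of 39 at 6 h (NRP1 and SEMA3C), against 1.1% of all, and in 5 of 46 at 24 h (NRP1, SEMA3C and PLXNA4), against 0.971%. Since probe sets were kept by their mean, some of these spans reach below the signal threshold. At 6 h the arrays numbered 3 lay below it for NRP1 at 212298_at (4.93 to 5.22) and 210510_s_at (4.54 to 4.94). The arrays numbered 2 were below it as well at 210510_s_at, at 5.25 for every dose. That probe set was thus kept at 6 h only through the arrays numbered 1 (6.40 to 6.67). At 24 h the arrays numbered 3 lay below the threshold for NRP1 210510_s_at (4.58 to 5.23) and SEMA3C 203788_s_at (4.44 to 4.71). On the other probe sets whose number means spanned over 1, every array was above it. The part of these low signals in the spans was not tested. Among those with more than 50% of the spread at 24 h, SEMA3A 206805_at was also below the threshold on the arrays numbered 3 (5.05 to 5.30). PLXNC1 213241_at was below it on the untreated arrays 2 and 3 (5.16 and 5.04). The median share of the dose was 11.8% at 6 h and 15.6% at 24 h, beside 31.6% and 21.1% over all probe sets. The arrays numbered 3 were the lowest at every dose in 13 of 39 probe sets at 6 h (12.6% of all probe sets) and the highest in 4 (10.7% of all), and at 24 h in 17 and 9 of 46 (16.6% and 12.9% of all). These shares carry no test, since the numbers name pools and not a condition, and probe sets of 1 gene share their RNA.

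Other genes moved with the number as well. The collagen gene COL1A1 was at 8.24 to 8.69 on the arrays numbered 1 and 2 of 6 h and at 6.93 to 7.28 on those numbered 3, and LUM, an extracellular matrix gene, at 8.84 to 9.68 and 8.40 to 8.62. DCN, another mesenchymal gene, ran the other way, at 7.03 to 7.44 and 7.51 to 7.56, and MAPT, a neuronal microtubule gene, was at 8.16 to 8.19 on the arrays numbered 1 and 7.41 to 7.69 on the rest. PRRX1 and COL1A2 were below the threshold on every array. In pooled dishes, fewer cells of a kind and less RNA per cell cannot be told apart, and the part of any of these genes in the spread of NRP1 or SEMA3C was not tested.

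**Figure D4:**
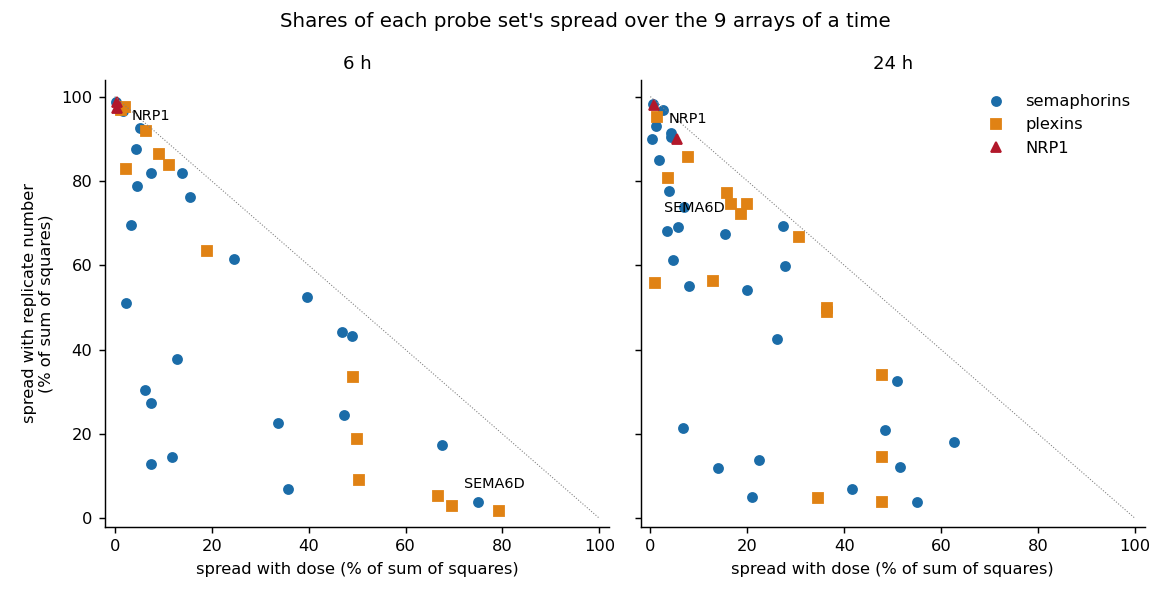
Share of the sum of squares over the 9 arrays of a time that went with the replicate number (vertical axis, %) and with the dose (horizontal axis, %), 1 point per probe set, at 6 h (left) and 24 h (right). NRP1 lies at the upper left (98.8% and 0.501% at 6 h), while SEMA6D 226492_at moves to 75.0% with dose and 3.85% with number at 6 h, and to 5.71% and 69.2% at 24 h.

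The remaining genes passed in neither fit for 5 over 0 μM at 6 h. SEMA4C, the ligand of PLXNB2, was at 10.14 to 10.42 at 46665_at over the 9 arrays of 6 h, and SEMA4D 203528_at, whose protein binds PLXNB1, at 6.47 to 6.64. Their log2 fold changes of 5 over 0 μM were 0.02 (95% interval -0.15 to 0.20) and -0.03 (-0.16 to 0.11). The second SEMA4D probe set, 228891_at, was at -0.20 (-0.49 to 0.09, limma adjusted p = 0.456, or -0.36 to -0.04 and 0.106 with the block). PLXNB2, whose 3 arrays at 5 μM lay below all untreated ones, was at -0.11 (-0.24 to 0.02, adjusted p = 0.372, or 0.227 with the block). PLXNB1, PLXNA1 221538_s_at, SEMA4A and SEMA6B 224182_x_at were at 0.03, -0.03, 0.04 and -0.03, SEMA7A at -0.13, and the SEMA3F probe sets at -0.08 and -0.10, with adjusted p of 0.463 or more. SEMA4F was at -0.03 and 0.05 at its 2 probe sets, SEMA5A at -0.14 to 0.10 at 3, PLXNA4 at -0.10 to 0.20 at 3, and SEMA3C at 0.33 (SE 0.509). Without the block the 95% interval of each of these included 0. The second NRP1 probe set, 210510_s_at, was at 0.12, with an interval of -1.35 to 1.59 without the block and -0.15 to 0.39 with it.

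Partners and targets of the family were followed in a list of 53 genes (co-receptors, CRMP and MICAL proteins, GTPases, their regulators and kinases), of which 44 were kept at 6 h with 89 probe sets. At 5 over 0 μM, 3 of the 89 passed in limma (3.37%, beside the 2.98% of all). Among them were FARP1 at 239246_at, an exchange factor for small GTPases (-0.24, adjusted p = 0.0903), and ARHGAP35 at 202044_at, which inactivates small GTPases (0.23, adjusted p = 0.0883). With the block 20 of 89 passed (22.5%, beside 18.6%), by any probe set 6 genes higher and 10 lower, but by the probe set with the highest mean of each gene 0 higher and 7 lower. The 20 included the cell adhesion gene NRCAM at 216959_x_at (0.34, limma adjusted p = 0.0257), ITGA1, an integrin subunit, at 226731_at (-0.41, 0.0368), and PTK7, a kinase-like receptor (-0.19, 0.0456). The NRCAM probe set with the highest mean, 204105_s_at, did not pass as higher. Without the untreated arrays 2 and 3 it was at -0.24 with the block, against 0.21 for 216959_x_at. The kinase GSK3B passed in opposite directions at 2 probe sets, 209945_s_at (0.36, 0.0302) and 226183_at (-0.21, 0.0913). At 1 over 0 μM, 0 of 89 passed without the block, as did 0% of all, and 11 with it (12.4%, beside 12.5% of all). At 24 h 0 of 98 passed in any comparison, where at most 0.0123% of all did. Without the untreated arrays 2 and 3 of 6 h, a setting added for this list after seeing the data, 0 of 89 passed without the block in either comparison, and with it 5 of 89 at 5 over 0 μM (5.62%, beside the 2.6% of all) and 12 at 1 over 0 μM (13.5%, beside 8.6%). The probe sets named here were not among the 5, with FARP1 239246_at at -0.18, ARHGAP35 202044_at at 0.23, NRCAM 216959_x_at at 0.21 and ITGA1 226731_at at -0.19 (limma adjusted p of 0.231, 0.138, 0.152 and 0.261).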

How the data were processed

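Cultures of differentiated SH-SY5Y cells were profiled on 18 Affymetrix U133 Plus 2.0 arrays. The authors ran RMA in the affy library (background correction, normalization, median polish), the arrays of each time apart, and the resulting log2 values were used as deposited. Versions are not given in the sources used here. The labels of the 5 μM arrays also call them untreated controls, and the stated dose was used.

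Probe sets with a symbol and a mean above log2(40) over the 9 arrays of a time were kept (22455 at 6 h, 24307 at 24 h). Each pair of doses was tested in limma 3.58.1 in R 4.3.3 (lmFit, eBayes) at a Benjamini-Hochberg adjusted p under 0.10 over all probe sets kept, as the study's methods state. The contrast between times used all 18 arrays. One probe set naming SEMA3B and a second gene was tested and not named. The fit was also run on simulated data.

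Labels share replicate numbers between doses. Deviations from group means correlated at 0.377 to 0.768 (6 h) and 0.424 to 0.733 (24 h) within a number and at -0.632 to 0.165 between numbers, so the numbers were taken to pair the arrays, and the replicate block is given where it changes a call. The members, lists and tests were chosen with earlier results of these data known. Values on every array are given for members called in either fit; those of NRP1, SEMA3C, PLXNA4 and PLXNA2 213030_s_at, and of PLXNB2, were chosen after their values were seen. Members outside the threshold are only named, and 1 result of the pathway list is not reported here.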

Additional observations from a re-analysis of the deposited data

Results flagged for a closer look

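SEMA6D 226492_at had a change after 5 μM cocaine at 6 h that differed from that at 24 h by -0.75 on the log2 scale in a test of the difference itself (limma adjusted p = 0.0611), with 5 minus 0 μM below 0 for all 3 replicate numbers at 6 h and for 2 of 3 at 24 h. Without the untreated arrays 2 and 3 of 6 h, which were high in CYP26A1 and RARB, the difference was -0.35 (adjusted p = 0.391).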

How the results depend on the processing

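The single call at 6 h for 5 over 0 μM was fragile. The count of 1 became 7 with the replicate block, and 0 with only the 6 arrays of both doses, at an adjusted p under 0.05, with 1 probe set per gene and without the untreated arrays 2 and 3, and it was 0 to 1 when each array was left out in turn. It stayed 1 without a signal filter, above log2(100), with median centring, with an intensity trend, and with the block and without the untreated arrays 2 and 3 together (a setting chosen after seeing the data), where the probe set called was SEMA5B and not SEMA6D. For 1 over 0 μM at 6 h the count of 0 became 5 with the block, 4 other probe sets with the block and without these 2 arrays (also chosen after seeing the data), and 0 to 1 with single arrays left out. For the change at 6 h against that at 24 h the count of 1 became 8 with the block, 0 at an adjusted p under 0.05, 0 without the untreated arrays 2 and 3 of 6 h (chosen after seeing the data), and 0 to 1 with single arrays left out. In these 3 comparisons in turn, 18.6%, 12.5% and 15.9% of all probe sets tested passed with the block. With single arrays left out, 0 to 2432, 0 to 962 and 475 to 1357 of them did. The counts of 0 for 5 over 1 μM at 6 h and for the 3 comparisons at 24 h did not change under any alternative run. SEMA6A 225660_at reversed without the untreated arrays 2 and 3, at -0.22 for 5 over 0 μM and -0.19 for the difference between the times, and no other single probe set followed changed sign. Where a count moved, the cause was not tested, apart from the fewer arrays that some settings hold by construction. Signals near the threshold of 5.32 limit what the arrays can show for the genes that were not kept.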
